A study of Homo sapiens with 6 samples.

Results

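Collagen chain genes were taken as every human gene whose symbol is COL, a number, A and a number, which gave 44 of the 23548 genes in the count table. Antisense, pseudogene and readthrough symbols were left out. PolyA RNA was sequenced from human dermal fibroblasts, a primary line, with 3 groups that each had 2 libraries, called biological duplicates in the design text. The VP64-MyoD cells carried a doxycycline-inducible (Tet-ON) lentivirus for mouse MyoD, the muscle-determining bHLH transcription factor, with the activation domain VP64 joined to its N-terminus by a serine glycine linker. The WT-MyoD cells carried the same vector for the wild-type mouse factor. In both, a ribosome-skipping peptide linked MyoD to the red fluorescent protein dsRed-Express2, transduction used 4 µg/mL polybrene, the cells were selected in 1 µg/mL puromycin, and 3 µg/mL doxycycline was given until harvest at day 10. The remaining group was untreated fibroblasts, and the labels do not say whether these were transduced, selected or given doxycycline, or on which day they were harvested. A comparison with untreated cells therefore covers the factor together with whatever the vector, selection and drug did.

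Collagens are trimers of chains that each carry long runs of Gly-X-Y repeats wound into a helix. The chains are hydroxylated, glycosylated and folded in the endoplasmic reticulum, and most are trimmed by extracellular proteases and crosslinked by lysyl oxidases. Fibrillar types I, III and V form the fibres of the dermis and are the main product of dermal fibroblasts, type VI forms beaded filaments around many cell types including muscle fibres, type IV forms the network of basement membranes, and the fibril-associated types sit on the fibre surface. Muscle is wrapped in a basement membrane and in fibrillar and type VI collagen, much of it made by neighbouring fibroblasts.

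The library totals lay between 40997586 and 53804224 counts, with each read pair counted as 2. Levels are counts per 1000000 counts (CPM) scaled by TMM, a method that equalizes libraries on genes that differ little. A single read pair was worth about 0.0401 CPM in untreated replicate 1. The mouse MyoD transgene stood at 115 and 96.5 CPM with VP64-MyoD, 757 and 1015 with WT-MyoD, and 5.09 and 1.05 in untreated cells. These levels matched the labels for MyoD against untreated libraries, but the counted transcript does not tell the MyoD forms apart. A comparison between VP64-MyoD and WT-MyoD therefore covers the form of the factor together with this difference in transgene level. All 9 fibroblast markers had counts, and their summed level, in which VIM was the largest term, was 5534 and 5341 CPM in VP64-MyoD cells, 7163 and 7471 CPM in WT-MyoD cells, and 7191 and 7297 CPM in untreated cells. Its members went in different directions, with PI16 at 5.16 and 4.81 CPM in VP64-MyoD cells, 55.8 and 63.5 CPM in WT-MyoD cells, and 621 and 579 CPM in untreated cells, PDGFRB and FAP under both untreated libraries in all 4 MyoD libraries, and VIM, LUM and S100A4 above them. The summed level of 7 muscle markers was 3103 and 2704 CPM in VP64-MyoD cells, 311 and 285 CPM in WT-MyoD cells, and 4.37 and 4.04 CPM in untreated cells. In such bulk samples, fewer cells of a type and less RNA per cell cannot be told apart.

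Of the 44 collagen chain genes, 35 passed the filter on low counts and entered the fit over 15778 genes, 30 had a mean of at least 1 CPM in some group, and 3 (COL6A5, COL9A1 and COL9A3) had no read in any library. With VP64-MyoD against untreated cells, 14 members were higher, 14 lower and 7 not called at an edgeR adjusted p under 0.05. Over all genes tested in that comparison, 33.0% were higher and 30.0% lower, 63.1% in either direction. With WT-MyoD against untreated cells, 10 members were higher, 14 lower and 11 not called, where 25.7% of all genes were higher and 22.2% lower, 47.9% together. Between VP64-MyoD and WT-MyoD, 17 members were higher with VP64-MyoD, 11 lower and 7 not called, where 28.4% of all genes were higher and 28.2% lower, 56.6% together.

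Called members past 2-fold numbered 15 (42.9% of those tested, against 19.7% of all genes) with VP64-MyoD over untreated, 16 (45.7%, against 15.6%) with WT-MyoD over untreated, and 17 (48.6%, against 14.4%) between the MyoD forms. A member that passed the filter only through the group where it was high had to differ, so these counts describe the members and support nothing further. The median log2 fold change over members was -0.14 with VP64-MyoD over untreated, where the median over all genes was 0.03, and its sign turned with library totals alone (0.05) and without untreated replicate 2 (0.15). It was -0.15 with WT-MyoD over untreated (0.00 over all genes) and 0.38 between VP64-MyoD and WT-MyoD (0.02 over all genes). Against untreated cells, 4 of 35 members (11.4%) were called in opposite directions by the MyoD forms, with a called difference between the forms, as were 5.10% of all genes. The 3 group means came in all 6 possible orders. The highest mean lay in VP64-MyoD cells for 13 of the members tested, in WT-MyoD cells for 7 and in untreated cells for 15.

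**Figure D1:**
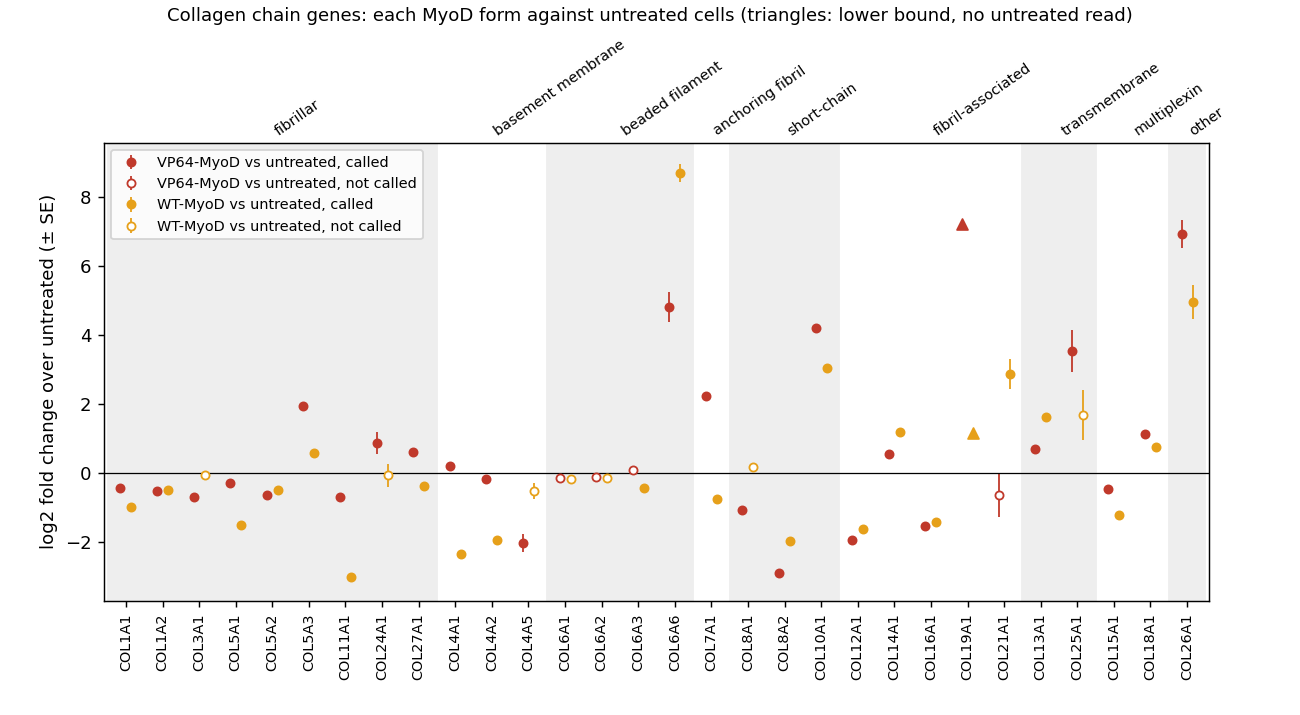
Log2 fold change over untreated cells (y axis, with standard errors) for the 30 collagen chain genes with a mean of at least 1 CPM in some group (x axis, by class), VP64-MyoD in red and WT-MyoD in orange. Filled points had an edgeR adjusted p under 0.05, open points did not, and triangles are lower bounds for COL19A1, which had no read in untreated cells. COL6A6 and COL26A1 rest on 2 read pairs in untreated cells, and the points run from -3.00 (COL11A1, WT-MyoD) upward.

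As a share of all counts, collagen chain genes took 5.67% and 5.53% with VP64-MyoD, 4.52% and 4.94% with WT-MyoD, and 6.81% and 6.99% in untreated cells. The 3 groups did not overlap. The difference was -1.29 percentage points for VP64-MyoD minus untreated (means 5.6 ± 0.10% and 6.90 ± 0.13%, SD, n = 2 each), -2.17 for WT-MyoD minus untreated (4.73 ± 0.30% and 6.90 ± 0.13%), and 0.876 for VP64-MyoD minus WT-MyoD. The exact two-sided permutation test gave p = 0.333 for each, the smallest that 2 libraries against 2 can give. The genes COL1A1 and COL1A2 were among the top 4 of all genes by CPM in every library.

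The makeup of the collagen counts is given by class, as values without a test. Fibrillar chains held 61.2% and 59.9% of collagen counts with VP64-MyoD, 61.3% and 61.2% with WT-MyoD, and 59.0% and 59.5% in untreated cells. Beaded-filament chains made up 26.9% and 27.6% with VP64-MyoD, 25.6% and 25.2% with WT-MyoD, and 19.6% and 18.9% in untreated cells. Fibril-associated chains made up 7.0% and 7.14% with VP64-MyoD, 10.1% and 10.7% with WT-MyoD, and 17.2% and 17.8% in untreated cells. Basement membrane chains made up 3.37% and 3.68% with VP64-MyoD, 1.00% and 0.917% with WT-MyoD, and 2.61% and 2.37% in untreated cells. For the last 3 classes the groups did not overlap. Per kilobase of transcript the beaded-filament share overlapped between the MyoD forms, at 26.2% and 27.0% with VP64-MyoD and 26.3% and 25.7% with WT-MyoD. Most of the fibril-associated share was COL12A1, with 16.1% and 16.8% of collagen counts in untreated cells. Shares of a sum depend on each other, so a lower share of 1 class raises the rest.

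**Figure D2:**
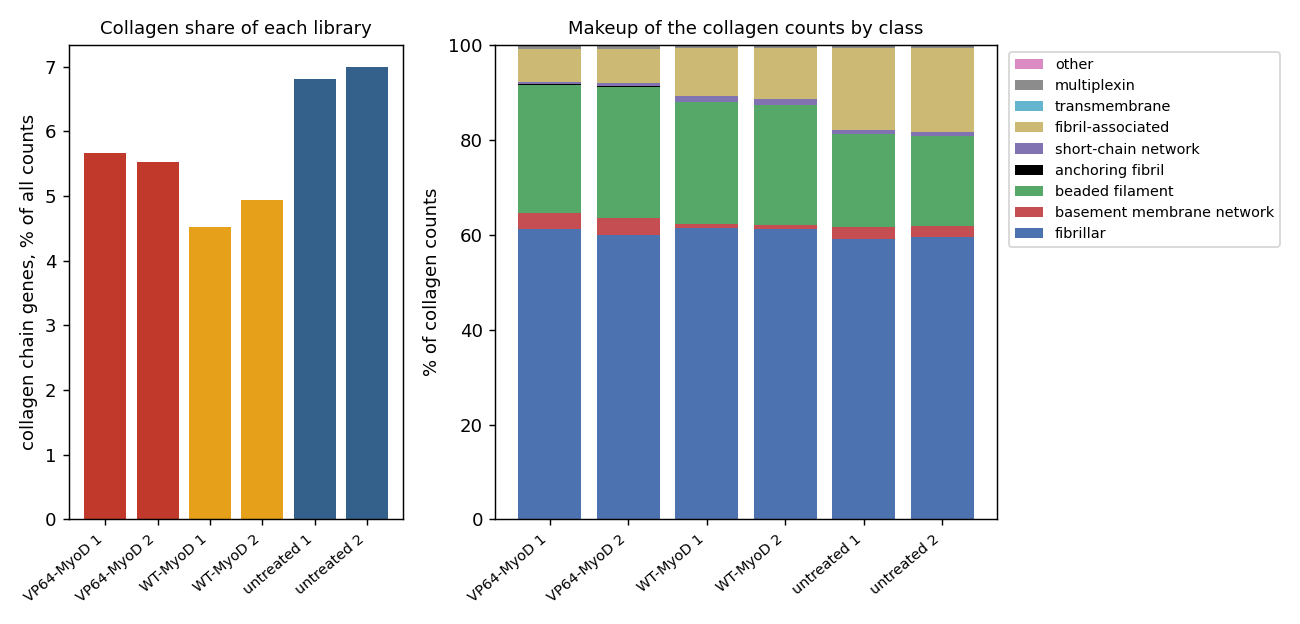
Left, collagen chain genes as a percentage of all counts in each of the 6 libraries (bars start at 0); right, the percentage of collagen counts in each class. The untreated libraries have the tallest bars (6.81% and 6.99%), and the fibril-associated part is widest there (17.2% and 17.8%).

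Of the major fibrillar chains, COL1A1 and COL1A2 were lower with both MyoD forms and COL3A1 with VP64-MyoD. COL1A1, which gives the pair of alpha 1 chains of each type I trimer, stood at 14950.2 and 13501 CPM in VP64-MyoD cells, 8710.0 and 10718 CPM in WT-MyoD cells, and 18249 and 19608 CPM in untreated cells. The groups did not overlap, and the lowest libraries were those of WT-MyoD. The log2 fold change over untreated was -0.41 with VP64-MyoD (edgeR SE 0.10, adjusted p = 0.0019) and -0.96 with WT-MyoD (edgeR SE 0.10, adjusted p = 7.2e-07). Against WT-MyoD, VP64-MyoD was higher (edgeR log2 fold change 0.55, SE 0.10, adjusted p = 0.00021). COL1A2, the alpha 2 chain of the same trimer, stood at 9658 and 8865 CPM in VP64-MyoD cells, 8845 and 9991 CPM in WT-MyoD cells, and 12919 and 13622 CPM in untreated cells. Here the MyoD groups overlapped each other and lay under both untreated libraries (log2 fold change -0.52, SE 0.08, with VP64-MyoD and -0.49, SE 0.08, with WT-MyoD, edgeR adjusted p = 7e-05 and 0.00016). COL3A1, the type III chain of extensible tissues, stood at 3675 and 3542 CPM in VP64-MyoD cells, 5188 and 5910.4 CPM in WT-MyoD cells, and 5692 and 5897 CPM in untreated cells. Its level was lower with VP64-MyoD than in untreated cells (edgeR log2 fold change -0.68, SE 0.08, adjusted p = 2.2e-06) and than in WT-MyoD cells (-0.62, SE 0.08, edgeR adjusted p = 8.2e-06), while the WT-MyoD libraries overlapped the untreated ones (-0.06, SE 0.08, edgeR adjusted p = 0.56).

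The type V chains, which start and limit the growth of type I fibrils, went in different directions. COL5A1 stood at 2407 and 2389.9 CPM in VP64-MyoD cells, 951 and 1136 CPM in WT-MyoD cells, and 2929.8 and 2883 CPM in untreated cells. The WT-MyoD libraries were well under the other 4 (log2 fold change over untreated -1.48, SE 0.08, edgeR adjusted p = 5.1e-10). The smaller change with VP64-MyoD, -0.28 (edgeR SE 0.08, adjusted p = 0.0082), lost its call without VP64-MyoD replicate 2 (-0.28, edgeR adjusted p = 0.051), without untreated replicate 1 (-0.27, edgeR adjusted p = 0.054), and with library totals alone as the scale (-0.09). COL5A2, its partner chain, stood at 1684 and 1659 CPM in VP64-MyoD cells, 1771 and 1973 CPM in WT-MyoD cells, and 2629.6 and 2586 CPM in untreated cells. It was lower with both forms than in untreated cells (log2 fold change -0.64, SE 0.07, with VP64-MyoD and -0.48, SE 0.07, with WT-MyoD, edgeR adjusted p = 1.7e-06 and 5.3e-05). COL5A3, a type V chain of more restricted occurrence, stood at 781 and 817 CPM in VP64-MyoD cells, 311 and 312 CPM in WT-MyoD cells, and 214 and 204 CPM in untreated cells. All 4 MyoD libraries were above the untreated ones, those of VP64-MyoD most (log2 fold change 1.94, SE 0.07, with VP64-MyoD and 0.58, SE 0.06, with WT-MyoD, edgeR adjusted p = 7.1e-13 and 1.6e-06). The log2 fold change of VP64-MyoD over WT-MyoD was 1.36 for COL5A3 (edgeR SE 0.06, adjusted p = 8.6e-11) and 1.20 for COL5A1 (edgeR SE 0.08, adjusted p = 7.5e-09).

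COL11A1, a fibril-nucleating chain known from cartilage that can join type V chains, had one of the widest ranges among the fibrillar genes. It stood at 423 and 437 CPM in VP64-MyoD cells, 80.3 and 91.3 CPM in WT-MyoD cells, and 694 and 681 CPM in untreated cells. The WT-MyoD libraries were lowest by far (log2 fold change over untreated -3.00, SE 0.08, edgeR adjusted p = 3.3e-14), and VP64-MyoD lay between (-0.68, SE 0.07, edgeR adjusted p = 5.1e-07). COL27A1, a fibrillar chain, stood at 17.1 and 16.3 CPM in VP64-MyoD cells, 8.02 and 9.0 CPM in WT-MyoD cells, and 11.2 and 10.6 CPM in untreated cells. It was higher with VP64-MyoD (edgeR log2 fold change 0.61, SE 0.10, adjusted p = 6.2e-05) and lower with WT-MyoD (-0.36, SE 0.10, edgeR adjusted p = 0.0087) than in untreated cells. Its call with WT-MyoD was lost without WT-MyoD replicate 1 (-0.28, edgeR adjusted p = 0.056), without untreated replicate 1 (-0.32, edgeR adjusted p = 0.072) and with library totals alone (-0.19). COL24A1, another fibrillar chain, had 47 and 36 read pairs with VP64-MyoD, 19 and 23 with WT-MyoD, and 24 and 19 in untreated cells. Its log2 fold change of 0.88 with VP64-MyoD over untreated (edgeR SE 0.31, adjusted p = 0.023) lost its call without VP64-MyoD replicate 1 (0.59) and without either untreated library (0.96 and 0.81). Its 0.95 over WT-MyoD (edgeR SE 0.32, adjusted p = 0.019) was lost without VP64-MyoD replicate 1 (0.65) or WT-MyoD replicate 1 (0.59).

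In the basement membrane class, the WT-MyoD cells stood apart for the main pair of type IV genes. COL4A1 and COL4A2 are head-to-head neighbours on chromosome 13 whose products join in the common type IV trimer. The RefSeq promoter table (GRCh38.p14) gives the stretch between their start sites, shown because both genes had their lowest levels with WT-MyoD, at chr13:110307158-110307283, plus strand. CANNTG, the E-box core that MyoD and its relatives bind, is in capitals where present, and this stretch holds none.
between COL4A1 and COL4A2: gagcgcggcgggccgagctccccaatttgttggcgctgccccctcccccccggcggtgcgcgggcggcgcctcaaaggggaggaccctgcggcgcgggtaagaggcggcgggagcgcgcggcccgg

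COL4A1 stood at 987 and 1032 CPM in VP64-MyoD cells, 173 and 178 CPM in WT-MyoD cells, and 904 and 845 CPM in untreated cells. COL4A2 stood at 863 and 887 CPM in VP64-MyoD cells, 247 and 271 CPM in WT-MyoD cells, and 1009.9 and 965 CPM in untreated cells. For both genes the WT-MyoD libraries were far under the other 4. The log2 fold change of WT-MyoD over untreated was -2.32 for COL4A1 (edgeR SE 0.07, adjusted p = 2.9e-13) and -1.93 for COL4A2 (edgeR SE 0.07, adjusted p = 2.9e-12). Over WT-MyoD, VP64-MyoD was higher by 2.52 for COL4A1 (edgeR SE 0.07, adjusted p = 2.6e-13) and by 1.76 for COL4A2 (edgeR SE 0.07, adjusted p = 1.3e-11). The differences of VP64-MyoD from untreated cells were small and lay in opposite directions, 0.21 for COL4A1 (edgeR SE 0.07, adjusted p = 0.013) and -0.17 for COL4A2 (edgeR SE 0.07, adjusted p = 0.037). The COL4A1 call was lost without VP64-MyoD replicate 2 (0.17, edgeR adjusted p = 0.15) or untreated replicate 2 (0.15, edgeR adjusted p = 0.17). The COL4A2 call was lost without any 1 of VP64-MyoD replicates 1 and 2 and untreated replicates 1 and 2 (-0.14 to -0.21) and with a mean count of at least 50 (-0.16), and it turned to 0.01 with library totals alone.

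The remaining type IV genes were scarce. COL4A5, a chain of kidney basement membranes, stood at 0.602 and 0.572 CPM in VP64-MyoD cells, 1.66 and 1.70 CPM in WT-MyoD cells, and 2.12 and 2.64 CPM in untreated cells. VP64-MyoD cells were under untreated cells (edgeR log2 fold change -2.01, SE 0.26, adjusted p = 6.8e-06) and under WT-MyoD cells (-1.51, SE 0.27, edgeR adjusted p = 0.0002). COL4A4, a chain of the kidney filter, had 6 to 14 read pairs a library and was called in no comparison. COL4A3 and COL4A6 had at most 3 read pairs in any library. The 6 endothelial markers, a cell type rich in type IV collagen, summed to 21.3 and 19.6 CPM in VP64-MyoD cells, 9.43 and 9.0 CPM in WT-MyoD cells, and 11.6 and 11.4 CPM in untreated cells. The sum was mostly CLDN5 and TEK. CLDN5 stood at 10.4 and 8.17 CPM in VP64-MyoD cells and 0.812 and 0.827 CPM in WT-MyoD cells, with no read in untreated cells, and TEK stood at 9.11 and 9.84 CPM in VP64-MyoD cells, 6.67 and 6.52 CPM in WT-MyoD cells, and 10.2 and 10.8 CPM in untreated cells. PECAM1, CDH5, VWF and KDR were at or under 1.33 CPM in every library. The muscle markers given above were also highest with VP64-MyoD. They were higher with WT-MyoD than in untreated cells, while COL4A1 and COL4A2 were lower with WT-MyoD. The part of either marker list in the type IV values was not tested.

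COL7A1 makes the anchoring fibrils that hold the epidermis to the dermis. It stood at 95.3 and 103 CPM in VP64-MyoD cells, 11.8 and 13.3 CPM in WT-MyoD cells, and 21.4 and 20.5 CPM in untreated cells. The groups did not overlap, with VP64-MyoD on top and WT-MyoD lowest. The log2 fold change was 2.24 with VP64-MyoD over untreated (edgeR SE 0.08, adjusted p = 9.1e-13), -0.75 with WT-MyoD over untreated (edgeR SE 0.08, adjusted p = 1.8e-06) and 2.98 with VP64-MyoD over WT-MyoD (edgeR SE 0.08, adjusted p = 2.1e-13). Keratinocytes also make this chain, and 6 keratinocyte markers summed to 18.1 and 17.8 CPM in VP64-MyoD cells, 8.76 and 7.59 CPM in WT-MyoD cells, and 5.81 and 6.32 CPM in untreated cells. The sum was mostly KRT10 and TP63. KRT10 stood at 7.39 and 7.97 CPM in VP64-MyoD cells, 4.8 and 3.84 CPM in WT-MyoD cells, and 5.29 and 5.23 CPM in untreated cells. TP63 stood at 9.93 and 9.20 CPM with VP64-MyoD, 3.42 and 3.26 with WT-MyoD, and 0.160 and 0.454 in untreated cells. Both TP63 and COL7A1 were highest with VP64-MyoD. With WT-MyoD, TP63 was above untreated cells and COL7A1 below them. KRT1 had no read, KRT5 and KRT14 were at or under 0.292 CPM and CDH1 was at or under 0.688 CPM in every library. The part of this list in the COL7A1 values was not tested.

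Of the type VI chains, which assemble as trimers of COL6A1, COL6A2 and 1 further chain, COL6A1 and COL6A2 were called in no comparison. COL6A1 stood at 2448 and 2334 CPM in VP64-MyoD cells, 2224 and 2526 CPM in WT-MyoD cells, and 2596 and 2657 CPM in untreated cells. COL6A2 stood at 2468 and 2442 CPM in VP64-MyoD cells, 2334 and 2542 CPM in WT-MyoD cells, and 2658 and 2648 CPM in untreated cells. Both MyoD groups lay just under the untreated libraries (log2 fold changes -0.11 to -0.15) and were not called. Without WT-MyoD replicate 1 or 2 both genes were called lower with VP64-MyoD (-0.11 to -0.14), and without WT-MyoD replicate 2 both were called lower with WT-MyoD (-0.23 for COL6A1 and -0.17 for COL6A2). COL6A3, the usual partner of that pair, stood at 9847 and 9629 CPM in VP64-MyoD cells, 6227 and 7317 CPM in WT-MyoD cells, and 9138 and 9103 CPM in untreated cells. It was lower with WT-MyoD than in untreated cells (edgeR log2 fold change -0.43, SE 0.08, adjusted p = 0.00056) and higher with VP64-MyoD than in WT-MyoD cells (0.52, SE 0.08, edgeR adjusted p = 8e-05), and its 0.09 over untreated with VP64-MyoD (edgeR SE 0.08, adjusted p = 0.35) was not called, though 0.28 with library totals alone was.

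COL6A6, a chain that can take the place of COL6A3, was nearly silent in untreated cells. It had 29 and 34 read pairs with VP64-MyoD (1.25 and 1.30 CPM), 477 and 424 with WT-MyoD (16.8 and 20.6 CPM), and 1 and 1 in untreated cells. The ratio of CPM to untreated cells was 29.9 with VP64-MyoD (exact 95% interval 7.94 to 252) and 433 with WT-MyoD (119 to 3579), intervals that cover counting error only. Against WT-MyoD, VP64-MyoD was lower (edgeR log2 fold change -3.87, SE 0.15, adjusted p = 1.2e-11).

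Among the short-chain network collagens, COL10A1, known from the cartilage of growth plates, stood at 39.6 and 38.9 CPM in VP64-MyoD cells, 18.6 and 16 CPM in WT-MyoD cells, and 2.16 and 2.04 CPM in untreated cells. The groups did not overlap (log2 fold change over untreated 4.22, SE 0.11, with VP64-MyoD and 3.04, SE 0.12, with WT-MyoD, edgeR adjusted p = 4.1e-14 and 5.2e-12, and 1.18, SE 0.09, between the forms, edgeR adjusted p = 1.7e-08). The 5 chondrocyte markers summed to 171 and 157 CPM in VP64-MyoD cells, 277 and 306 CPM in WT-MyoD cells, and 854 and 898 CPM in untreated cells, most of it COMP (149 and 135 CPM in VP64-MyoD cells, 232 and 254 CPM in WT-MyoD cells, and 815 and 855 CPM in untreated cells). ACAN differed from that order, at 2.62 and 2.17 CPM in VP64-MyoD cells, 39.3 and 45.5 CPM in WT-MyoD cells, and 14 and 16.9 CPM in untreated cells. SOX9 lay between 4.8 and 20.4 CPM and MATN3 between 0.778 and 6.53 CPM over all libraries, both lowest with WT-MyoD, and COL2A1, the type II chain, was at or under 0.106 CPM in every library. The part of these genes in the COL10A1 values was not tested. COL8A2, a chain of the hexagonal network under the corneal endothelium, stood at 11.3 and 10.3 CPM in VP64-MyoD cells, 20.0 and 20.5 CPM in WT-MyoD cells, and 82.5 and 74.7 CPM in untreated cells. Both forms were under untreated cells (log2 fold change -2.87, SE 0.08, with VP64-MyoD and -1.96, SE 0.08, with WT-MyoD, edgeR adjusted p = 1.1e-13 and 8.7e-12). COL8A1, its partner, stood at 232 and 232 CPM in VP64-MyoD cells, 504 and 591 CPM in WT-MyoD cells, and 489 and 480.2 CPM in untreated cells. It was lower with VP64-MyoD than in untreated cells (edgeR log2 fold change -1.06, SE 0.07, adjusted p = 6e-09), while the 0.18 with WT-MyoD over untreated (edgeR SE 0.07, adjusted p = 0.062) was not called, though it was with DESeq2 (0.18), with no filter on low counts (0.18), with library totals alone (0.34) and without WT-MyoD replicate 1 (0.28).

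Fibril-associated COL12A1, which bridges type I fibrils in dense connective tissue and was lower with both MyoD forms, stood at 3329 and 3208 CPM in VP64-MyoD cells, 3593 and 4541 CPM in WT-MyoD cells, and 11837 and 12827 CPM in untreated cells. The log2 fold change over untreated was -1.92 with VP64-MyoD (edgeR SE 0.10, adjusted p = 1.7e-10) and -1.60 with WT-MyoD (edgeR SE 0.10, adjusted p = 1.7e-09). That of VP64-MyoD over WT-MyoD, -0.32 (edgeR SE 0.10, adjusted p = 0.012), lost its call without VP64-MyoD replicate 2 (-0.29, edgeR adjusted p = 0.078) or WT-MyoD replicate 2 (-0.15, edgeR adjusted p = 0.057). COL16A1, a chain of small fibril-associated assemblies in skin, stood at 188 and 187 CPM in VP64-MyoD cells, 190.1 and 214 CPM in WT-MyoD cells, and 546 and 538 CPM in untreated cells. All 4 MyoD libraries were under the untreated ones (log2 fold change -1.53, SE 0.07, and -1.42, SE 0.07, edgeR adjusted p = 2.5e-11 and 7.4e-11). COL14A1, a relative of COL12A1, went the other way, at 313 and 316 CPM in VP64-MyoD cells, 455 and 525 CPM in WT-MyoD cells, and 216 and 214 CPM in untreated cells. It was higher with both (log2 fold change 0.55, SE 0.07, and 1.19, SE 0.07, edgeR adjusted p = 7e-06 and 1.2e-09).

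COL19A1, a chain of basement membrane zones, had 237 and 235 read pairs with VP64-MyoD (10.2 and 8.97 CPM), 4 and 3 with WT-MyoD (0.141 and 0.146 CPM), and none in untreated cells. Against the floor of 3 read pairs over the group, it was at least 149-fold higher with VP64-MyoD and at least 2.24-fold higher with WT-MyoD than in untreated cells. These bounds leave out the counting error of the MyoD read pairs, which matters most for the few with WT-MyoD. The fitted log2 fold change of VP64-MyoD over WT-MyoD was 6.04 (edgeR SE 0.26). COL19A1 passed the filter through the VP64-MyoD libraries alone, so no p is given. An exon of COL19A1 overlaps LMBRD1 on the opposite strand, and whether counting used strand is not given in the sources used here. LMBRD1 stood at 30.5 and 30.9 CPM in VP64-MyoD cells, 31.4 and 29.6 CPM in WT-MyoD cells, and 34.6 and 32.8 CPM in untreated cells. COL22A1, known from muscle-tendon junctions, had 19 and 18 read pairs with VP64-MyoD and none in the other 4 libraries. By the same floor it was at least 11.7-fold higher than in untreated cells and at least 12.2-fold higher than in WT-MyoD cells. These bounds too leave out the counting error of the VP64-MyoD read pairs. COL22A1 passed the filter through the VP64-MyoD libraries alone, so no p is given. COL21A1, a fibril-associated chain, had 4 and 2 read pairs with VP64-MyoD, 41 and 29 with WT-MyoD, and 5 and 4 in untreated cells. Its fitted log2 fold change was 2.88 with WT-MyoD over untreated (edgeR SE 0.43) and -3.53 with VP64-MyoD over WT-MyoD (SE 0.46). COL21A1 passed the filter through the WT-MyoD libraries alone, so no p is given. COL9A2, a cartilage chain, had 4 and 4 read pairs with VP64-MyoD, 32 and 15 with WT-MyoD, and 12 and 9 in untreated cells. Its log2 fold change was -1.45 with VP64-MyoD over untreated (edgeR SE 0.52, adjusted p = 0.023) and 1.07 with WT-MyoD over untreated (edgeR SE 0.40, adjusted p = 0.037). The first was not called without VP64-MyoD replicate 1 or 2 (-1.53 and -1.37) or untreated replicate 1 (-1.33). The second was not called by DESeq2 (1.07) or with the replicate block (1.05), nor without any library other than WT-MyoD replicate 2 (0.70 to 1.20).

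COL13A1, a transmembrane chain of the neuromuscular junction, stood at 10.6 and 10.1 CPM in VP64-MyoD cells, 20.4 and 18.3 CPM in WT-MyoD cells, and 6.69 and 5.86 CPM in untreated cells. The groups did not overlap, with WT-MyoD on top (log2 fold change over untreated 0.72, SE 0.11, with VP64-MyoD and 1.62, SE 0.11, with WT-MyoD, edgeR adjusted p = 3.8e-05 and 3.4e-09). COL25A1, a transmembrane chain that in mice is needed for motor axons to enter muscle, had 29 and 33 read pairs with VP64-MyoD, 9 and 8 with WT-MyoD, and 5 and 0 in untreated cells. It was higher with VP64-MyoD than in untreated cells (edgeR log2 fold change 3.54, SE 0.61, adjusted p = 0.00012) and than in WT-MyoD cells (1.83, SE 0.49, edgeR adjusted p = 0.0052). Its 1.70 with WT-MyoD over untreated (edgeR SE 0.72, adjusted p = 0.065) was called by DESeq2, by limma-voom, with no filter and with library totals alone. All 5 untreated read pairs lay in replicate 1, without which the fitted values were 8.92 with VP64-MyoD and 7.08 with WT-MyoD. COL17A1, the hemidesmosome chain, had at most 6 read pairs in any library. It was called lower with VP64-MyoD than in WT-MyoD cells (edgeR log2 fold change -2.41, SE 0.97). COL17A1 passed the filter through the WT-MyoD libraries alone, so no p is given. The call was lost without any 1 of the 4 MyoD libraries (-2.33 to -2.51). It was also lost with DESeq2 (-2.50), with no filter (-2.41) and with the replicate block (-2.49). The COL17A1 change of 1.77 with WT-MyoD over untreated (edgeR SE 0.90) was not called, though it was by limma-voom (2.68). All 3 untreated read pairs of COL17A1 lay in replicate 2, without which the fitted value was 6.50. COL23A1, another transmembrane chain, had at most 15 read pairs in any library.

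COL15A1 and COL18A1, multiplexins of the basement membrane zone, differed in direction. COL15A1 stood at 363 and 388 CPM in VP64-MyoD cells, 211 and 233 CPM in WT-MyoD cells, and 522 and 504 CPM in untreated cells. COL18A1, whose end piece is endostatin, stood at 56.6 and 59.9 CPM in VP64-MyoD cells, 42.8 and 46.9 CPM in WT-MyoD cells, and 26.8 and 26.4 CPM in untreated cells. For COL15A1 both forms were under untreated (log2 fold change -0.45, SE 0.07, and -1.21, SE 0.07, edgeR adjusted p = 3.4e-05 and 5.7e-10), and for COL18A1 both were above it (1.13, SE 0.07, and 0.75, SE 0.07, edgeR adjusted p = 2.2e-09 and 4e-07). Both were higher with VP64-MyoD than in WT-MyoD cells (0.76 for COL15A1 and 0.38 for COL18A1, edgeR adjusted p = 1.7e-07 and 0.0003). COL26A1 had 124 and 146 read pairs with VP64-MyoD (5.33 and 5.57 CPM), 37 and 31 with WT-MyoD (1.31 and 1.51 CPM), and 2 and 0 in untreated cells. Its ratio to untreated was 128 (exact 95% interval 35.1 to 1063) with VP64-MyoD and 32.7 (8.70 to 275) with WT-MyoD, and both untreated read pairs lay in replicate 1. The fitted log2 fold changes, 6.92 with VP64-MyoD and 4.96 with WT-MyoD, were 11.04 and 9.07 without untreated replicate 1 and 6.04 and 4.08 without untreated replicate 2. Between VP64-MyoD and WT-MyoD the log2 fold change was 1.96 (edgeR SE 0.22, adjusted p = 2.1e-06). The remaining low members were COL11A2, a partner of COL11A1 at 5 to 13 read pairs, and COL2A1, COL20A1 and COL28A1, with at most 3, 4 and 5 read pairs in any library.

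**Figure D3:**
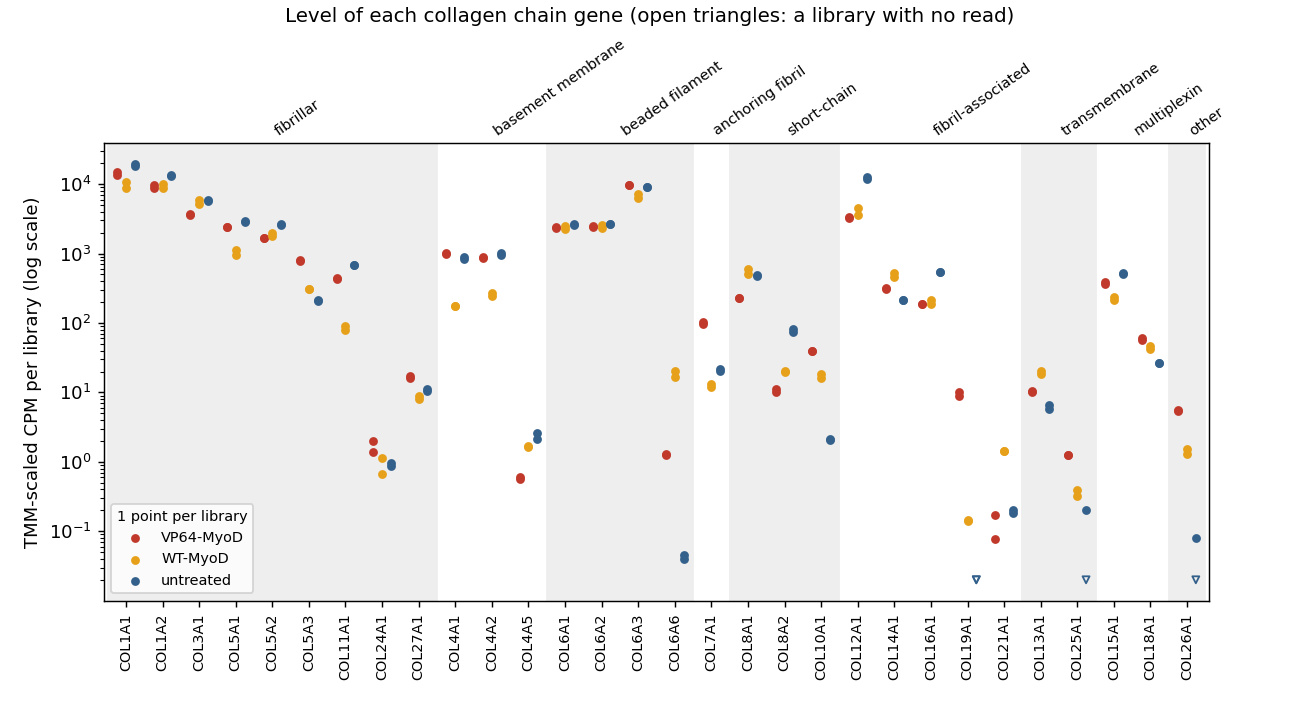
TMM-scaled CPM (log axis) of each collagen chain gene with a mean of at least 1 CPM in some group, 1 point per library, VP64-MyoD in red, WT-MyoD in orange and untreated in blue. COL1A1 tops the range in untreated cells (18249 and 19608 CPM), and COL6A6, COL19A1 and COL26A1 show the widest gaps between groups.

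Divided by transcript length, so that genes can be set beside each other, COL1A1 led with VP64-MyoD at 2115 ± 152 CPM per kilobase (SD, n = 2), followed by COL1A2 at 1712 ± 104. With WT-MyoD the pair stood the other way round, at 1444 ± 211 for COL1A1 and 1741 ± 149.7 for COL1A2, while untreated cells had 2814 ± 143 and 2452 ± 92. Next came COL6A3 (906 ± 14) with VP64-MyoD and COL3A1 (1001 ± 92) with WT-MyoD. In untreated cells it was COL12A1 (1052 ± 59.7), which overlapped COL3A1 (1045 ± 26), so the order of those 2 is not set. The lengths for COL1A1 and COL24A1 are of the longest protein-coding transcript in GENCODE 29. Counts of all transcript rows of a gene were summed and divided by the length of its longest row. This sets genes with shorter rows too low, and the order of genes depends on that choice. For COL12A1, a row of 5886 bases held 33.9% and 33.6% of its untreated read pairs, but 11723 bases were used.

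The balance of partner chains per kilobase was compared for 7 pairs. The ratio of COL1A1 to COL1A2 was 1.25 and 1.22 with VP64-MyoD, 0.792 and 0.863 with WT-MyoD, and 1.14 and 1.16 in untreated cells. That of COL5A1 to COL5A2 was 1.20 and 1.20 with VP64-MyoD, 0.449 and 0.481 with WT-MyoD, and 0.931 and 0.932 in untreated cells. That of COL4A1 to COL4A2 was 1.12 and 1.14 with VP64-MyoD, 0.689 and 0.644 with WT-MyoD, and 0.879 and 0.860 in untreated cells. In all 3 pairs VP64-MyoD was highest and WT-MyoD lowest with no overlap. The ratio of COL6A3 to COL6A1 showed the same order, at 1.61 ± 0.028 with VP64-MyoD, 1.12 ± 0.027 with WT-MyoD and 1.37 ± 0.026 in untreated cells (SD, n = 2 each). The ratio of COL6A1 to COL6A2 overlapped throughout, at 0.810 and 0.781 with VP64-MyoD, 0.778 and 0.811 with WT-MyoD, and 0.798 and 0.819 in untreated cells. COL3A1 to COL1A1 was 0.298 and 0.318 with VP64-MyoD, 0.723 and 0.669 with WT-MyoD, and 0.379 and 0.365 in untreated cells. COL8A1 to COL8A2 was 31.8 and 34.8 with VP64-MyoD, 38.9 and 44.5 with WT-MyoD, and 9.14 and 9.92 in untreated cells. No test was run on these ratios.

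**Figure D4:**
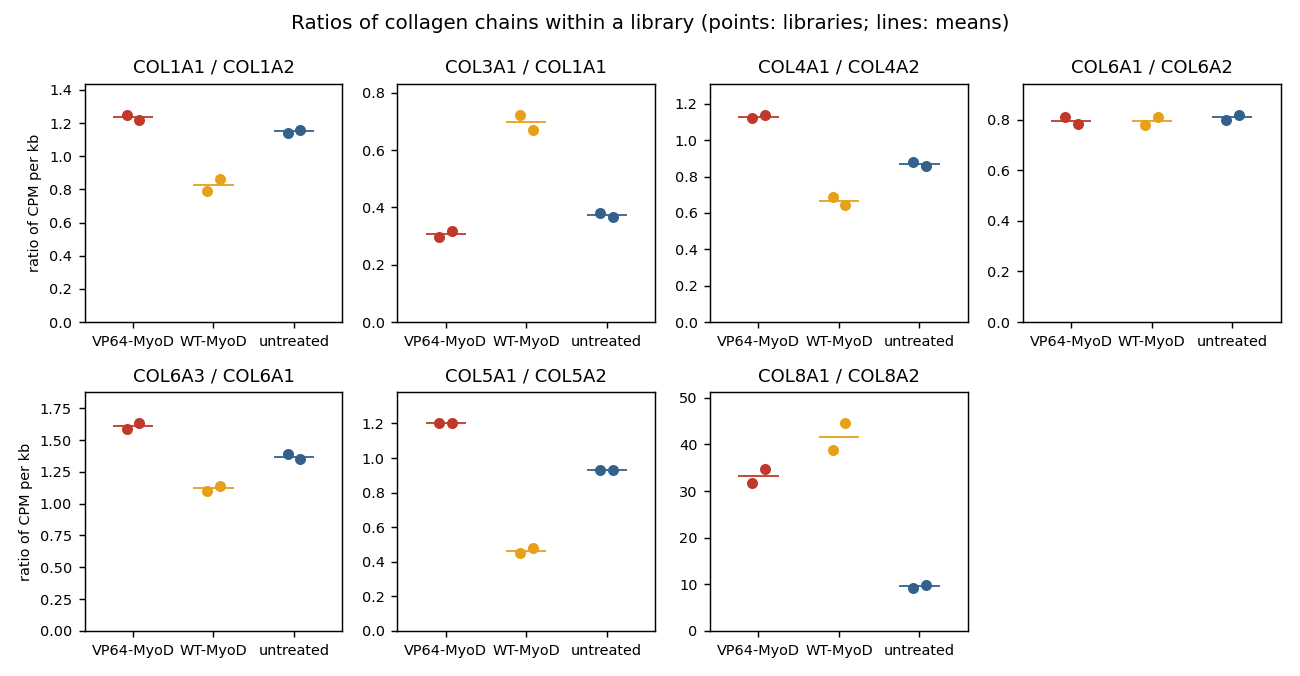
Ratio of CPM per kilobase between partner chains (y axes, from 0) for 7 pairs, 1 point per library in the order VP64-MyoD, WT-MyoD, untreated. COL6A1 to COL6A2 stays between 0.778 and 0.819 in all libraries, while COL5A1 to COL5A2 lies at 1.20 and 1.20 with VP64-MyoD, 0.449 and 0.481 with WT-MyoD, and 0.931 and 0.932 in untreated cells.

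Promoter sequences of the RefSeq table (250 bases upstream of each start, GRCh38.p14) were searched for E-boxes on both strands, with every overlap of motifs counted. Entries were found for 32 of the 44 genes, not for COL1A1, COL1A2, COL2A1, COL3A1, COL5A2, COL6A1, COL6A5, COL8A1, COL9A3, COL14A1, COL20A1 and COL22A1. CANNTG was present in 52.3% of 44 windows of these genes and in 61.8% of 35116 windows of all genes. The variant CAGCTG was in 9.09% against 14%, and CAGGTG (or CACCTG) in 11.4% against 17.5%. The 4 sequences printed here, with CANNTG in capitals, were chosen after the values were seen, for wide differences in both directions. COL6A6 was highest with WT-MyoD, COL19A1 and COL7A1 with VP64-MyoD, and COL12A1 was lower with both forms than in untreated cells. They lie at chr3:130516927-130517176 (COL6A6, plus strand), chr6:69866306-69866555 (COL19A1, plus strand), chr3:48595330-48595579 (COL7A1, minus strand) and chr6:75206054-75206303 (COL12A1, minus strand). COL19A1 and COL7A1 hold 1 E-box each in these bases, COL6A6 and COL12A1 none. A match is a description of these letters and not a site of binding.
COL6A6: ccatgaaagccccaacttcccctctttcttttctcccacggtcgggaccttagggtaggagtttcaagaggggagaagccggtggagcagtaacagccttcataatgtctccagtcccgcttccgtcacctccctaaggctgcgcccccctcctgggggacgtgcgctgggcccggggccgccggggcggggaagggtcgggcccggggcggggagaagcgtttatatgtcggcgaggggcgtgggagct
COL19A1: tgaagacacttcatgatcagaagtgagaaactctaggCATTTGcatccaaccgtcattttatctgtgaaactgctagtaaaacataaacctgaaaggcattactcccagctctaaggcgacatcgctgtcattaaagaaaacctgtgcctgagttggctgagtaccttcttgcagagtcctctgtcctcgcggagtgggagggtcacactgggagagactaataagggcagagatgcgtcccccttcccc
COL7A1: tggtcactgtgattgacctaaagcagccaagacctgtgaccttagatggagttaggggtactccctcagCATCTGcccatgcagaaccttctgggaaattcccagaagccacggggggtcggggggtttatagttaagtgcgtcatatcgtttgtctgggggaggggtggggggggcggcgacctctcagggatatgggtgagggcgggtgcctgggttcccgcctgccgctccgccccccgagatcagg
COL12A1: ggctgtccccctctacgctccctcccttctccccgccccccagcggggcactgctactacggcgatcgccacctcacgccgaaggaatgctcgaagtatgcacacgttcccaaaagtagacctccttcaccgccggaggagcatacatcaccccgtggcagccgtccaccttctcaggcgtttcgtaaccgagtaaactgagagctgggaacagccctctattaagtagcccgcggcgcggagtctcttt

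The genes that act on collagen chains were counted by list. Of 25 synthesis and secretion genes tested, 6 were higher and 11 lower with VP64-MyoD than in untreated cells, 3 higher and 18 lower with WT-MyoD, and 16 higher and 2 lower with VP64-MyoD than in WT-MyoD cells. Over all genes tested, 33.0% were higher and 30.0% lower in the first of these comparisons, 25.7% and 22.2% in the second, and 28.4% and 28.2% between the forms. PLOD2, a lysyl hydroxylase, stood at 460.4 and 460.3 CPM in VP64-MyoD cells, 129.6 and 128 CPM in WT-MyoD cells, and 379 and 378 CPM in untreated cells (log2 fold change over untreated 0.28, SE 0.06, and -1.55, SE 0.06, edgeR adjusted p = 0.00066 and 6.8e-12). SERPINH1, the collagen chaperone, stood at 684 and 637 CPM in VP64-MyoD cells, 451 and 434 CPM in WT-MyoD cells, and 869 and 846 CPM in untreated cells (-0.38, SE 0.07, and -0.95, SE 0.07, edgeR adjusted p = 0.00014 and 6.9e-09). P4HA2, a prolyl hydroxylase subunit, was higher with both, at 499 and 486 CPM in VP64-MyoD cells, 329.8 and 299.8 CPM in WT-MyoD cells, and 186 and 179 CPM in untreated cells (1.43, SE 0.07, and 0.79, SE 0.07, edgeR adjusted p = 4.2e-11 and 6.9e-08). TMEM38B, an endoplasmic reticulum cation channel, stood at 84.3 and 72.2 CPM in VP64-MyoD cells, 20.0 and 18.0 CPM in WT-MyoD cells, and 9.14 and 8.81 CPM in untreated cells (3.12, SE 0.10, and 1.09, SE 0.10, edgeR adjusted p = 1.9e-13 and 1.5e-07). Of 12 cleavage and crosslinking genes, 3 were higher and 5 lower with VP64-MyoD and 4 and 7 with WT-MyoD than in untreated cells, and 6 higher and 5 lower with VP64-MyoD than in WT-MyoD cells, against the same shares of all genes. LOXL2, a crosslinking oxidase, had a log2 fold change over untreated of -0.30 with VP64-MyoD (edgeR SE 0.06, adjusted p = 0.00075). That call was lost with library totals alone (-0.12). With WT-MyoD the LOXL2 change was -1.35 (edgeR SE 0.07, adjusted p = 8.3e-11). ADAMTS14, with the smallest adjusted p of this list with VP64-MyoD, was higher with both forms (3.45, SE 0.10, and 2.11, SE 0.11, edgeR adjusted p = 1.3e-13 and 1.1e-10).

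Of 11 receptors tested, 5 were higher and 3 lower with VP64-MyoD and 3 and 4 with WT-MyoD than in untreated cells, where 63.1% and 47.9% of all genes were called in either direction, and the counts of collagenases and fibril partners stand against these same shares. ITGA11, the fibroblast collagen integrin chain, had a log2 fold change of -1.81 (edgeR SE 0.08, adjusted p = 2.9e-11) with VP64-MyoD and -1.60 (edgeR SE 0.08, adjusted p = 1.5e-10) with WT-MyoD. DDR1, with the smallest adjusted p of the receptors with WT-MyoD, was higher with both forms (0.59, SE 0.09, and 1.95, SE 0.09, edgeR adjusted p = 2.5e-05 and 2.7e-11). Of 5 collagenases, 1 was higher and 4 lower with VP64-MyoD, and 2 were higher and 3 lower with WT-MyoD, than in untreated cells. MMP1, the interstitial collagenase, was the 1 higher with VP64-MyoD, at 309 and 315 CPM in VP64-MyoD cells, 134 and 118 CPM in WT-MyoD cells, and 26.3 and 21.5 CPM in untreated cells (log2 fold change 3.70, SE 0.09, and 2.40, SE 0.09, edgeR adjusted p = 1.9e-14 and 3.9e-12). Of 13 fibril partners, 3 were higher and 9 lower with VP64-MyoD and 3 and 9 with WT-MyoD. DPT, a fibril-binding matrix protein, stood at 14.6 and 17.1 CPM with VP64-MyoD, 55.4 and 50.6 with WT-MyoD, and 443 and 482 in untreated cells. Its log2 fold changes were -4.87 (SE 0.09) and -3.12 (SE 0.08, edgeR adjusted p = 5.8e-16 and 5.6e-14). PRELP was higher with both forms (1.02, SE 0.07, and 2.23, SE 0.07, edgeR adjusted p = 3.4e-09 and 4.1e-13).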

How the data were processed

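PolyA RNA was sequenced from 6 libraries of 3 groups (2 each). The submitters' processing notes name the tools CASAVA, Bowtie (version 0.12.9) and DESeq, with hg19 as genome build. The authors' deposited count table lists RefSeq transcripts with unnormalized counts, which are even throughout (2 counts a read pair). A second deposited table holds, per the file headers, the authors' fold ratio, log2 fold change and p-value against untreated cells. It entered no test.

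Of 40710 rows, 39324 were matched to a symbol through RefSeq and 526 through GENCODE 29, and 859 without a symbol (0.601% to 0.743% of a library's counts) were kept as features. Rows were summed per symbol. The test was the two-sided quasi-likelihood test of edgeR 4.0.16 (R 4.3.3, TMM, filterByExpr with minimum count 10 and minimum total 15), with Benjamini-Hochberg adjustment over 15778 genes and a call under 0.05. A single fit over all 6 libraries left 3 residual degrees of freedom, and the script was tested on simulated data. Standard errors were derived from the F statistic. Lower bounds use 3 read pairs over a group with no read and the observed level of the other group. Alternatives were DESeq2 1.42.0, limma-voom (limma 3.58.1), other scalings, filters and fits, and leaving out each library. Values are given per library for members with a mean of at least 1 CPM in a group, and for lists the 4 genes with the smallest adjusted p per comparison at most. Groups hold 2 cultures of the same line, so the p-values cover the spread of these cultures and not of donors. The members and lists were chosen with earlier results of these data known. Intervals cover counting error only, and floors only that of the group with no read. Whether counting used strand is not given in the sources used here, and an exon of 9 members is overlapped on the opposite strand, in 4 of them by a counted gene.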

Additional observations from a re-analysis of the deposited data

Results flagged for a closer look

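4 of 35 collagen chain genes tested (11.4%) were called in opposite directions against untreated cells by the MyoD forms and differed between the forms in the same fit, as did 5.10% of all 15778 genes. COL4A1 had a log2 fold change of VP64-MyoD over WT-MyoD of 2.52 (edgeR adjusted p = 2.6e-13), with 987 and 1032 CPM in VP64-MyoD cells and 173 and 178 CPM in WT-MyoD cells. Its call with VP64-MyoD against untreated cells was lost without VP64-MyoD replicate 2 (0.17) or untreated replicate 2 (0.15). COL7A1 had 2.98 (edgeR adjusted p = 2.1e-13), COL27A1 had 0.98 (edgeR adjusted p = 7.6e-07), and COL9A2 had -2.52 (edgeR adjusted p = 0.00028) on 4 to 32 read pairs a library. The COL27A1 call with WT-MyoD against untreated cells was lost with library totals alone (-0.19) and without WT-MyoD replicate 1 (-0.28) or untreated replicate 1 (-0.32). Of the COL9A2 calls against untreated cells, that with VP64-MyoD was lost without VP64-MyoD replicate 1 (-1.53), VP64-MyoD replicate 2 (-1.37) or untreated replicate 1 (-1.33). The COL9A2 call with WT-MyoD was lost by DESeq2 (1.07), with the replicate block (1.05) and without any library other than WT-MyoD replicate 2 (0.70 to 1.20). Each comparison with untreated cells uses the same 2 untreated libraries.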

How the results depend on the processing

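In every alternative that tested them, 22 of 26 called named members kept their call and direction with VP64-MyoD over untreated. The same held for 22 of 23 with WT-MyoD over untreated and 23 of 25 between the forms. The exceptions were COL4A1, COL4A2, COL5A1 and COL24A1, then COL27A1, then COL12A1 and COL24A1. Of the named members not called, 1 of 4, 3 of 7 and 3 of 5 stayed uncalled in every alternative that tested them. Between the forms, COL5A2 (-0.16, not called) was called by DESeq2 (-0.17), limma-voom (-0.16), with no filter (-0.16) and with library totals alone (-0.15). Without WT-MyoD replicate 1 the values were -0.24 for COL5A2 and -0.20 for COL16A1 (-0.11 in the main fit). COL9A2, COL17A1 and COL22A1 are not in these counts. COL19A1 and COL21A1 are in them, though each passed the filter only through the group where it was high. Their kept calls that involve that group therefore support nothing further. COL21A1 and COL25A1 were not tested with a mean count of at least 50. Library totals alone shifted the median log2 fold change of all genes to 0.22 with VP64-MyoD and 0.17 with WT-MyoD over untreated, and the higher share of calls to 68.5% and 75.6%, against 52.4% and 53.7% with TMM. With it the COL4A2 change with VP64-MyoD reversed to 0.01 and the median over collagen chain genes was 0.05. That median ranged from -0.16 to 0.15 when a library was left out with VP64-MyoD over untreated, and from 0.19 to 0.43 between the forms. With WT-MyoD over untreated it was -0.39 with a mean count of at least 50, and between the forms 0.01 with no filter, where other members were tested. Counting only the highest transcript row per gene gave collagen share differences of -1.58 and -2.61 percentage points. Same-numbered replicates did not deviate together (r from 0.00709 to 0.0316), and the replicate block gave 14 higher and 14 lower, 9 and 14, and 17 and 10 members in the 3 comparisons. Few read pairs limit COL9A2, COL21A1, COL24A1 and COL25A1.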

Other observations

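Transcript rows of 1 gene share exons and may share reads. The longer COL12A1 row, of 11723 bases, held 64.2% and 64.3% of its read pairs with VP64-MyoD, 63.0% and 63.3% with WT-MyoD, and 66.1% and 66.4% in untreated cells, without overlap between either MyoD group and untreated cells. The longest COL6A2 row, of 3461 bases, held 47.3% and 47.3% with VP64-MyoD, 45.4% and 44.3% with WT-MyoD, and 43.9% and 44.1% in untreated cells. The authors' deposited table lists 18 rows of 13 collagen chain genes, and its log2 fold changes had the sign of the present fit in 18 of 18 rows for VP64-MyoD and 18 of 18 for WT-MyoD. That table comes from the same libraries, so the shared sign is no independent support.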
